A study of Mus musculus with 7 samples.

Results

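Basophils and mast cells were sought in single-cell RNA libraries of mouse liver as barcodes carrying transcripts of their granule proteases and receptors. Members were selected on 5 marker genes, so their marker levels are a description of the selection and not a finding. A barcode was kept if it had over 1000 UMIs (unique molecular identifiers, each standing for 1 captured transcript) and at most 20% mitochondrial UMIs. It was a member if Prss34, Mcpt8, Cpa3, Ms4a2 and Cd200r3 together had at least 3 UMIs and made up at least 0.1% of its base UMIs, which are all UMIs except mitochondrial and hemoglobin ones. This gave 477 members among 100676 barcodes in 7 libraries, or 0.474%. By their leading genes, 73 members formed a basophil-like cluster. Another 63 carried Gata2 and Cyp11a1 beside the markers but led with genes of granulocyte precursors, and 2 of them held mast cell proteases. The other 341 lay in 5 clusters left unnamed. As in the cluster of 63, 0 basophil markers were among the 10 leading genes of each. Leading genes were ranked against the other members, all selected on the same 5 genes, so this count does not settle identity.

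Basophils and mast cells are rare granulocytes that bind IgE through a shared high-affinity receptor and release histamine, proteases, lipid mediators and cytokines from granules or by new synthesis. Basophils mature in bone marrow and circulate, whereas mast cells complete their maturation in tissues under the growth factor of the receptor Kit. In mice, Mcpt8 and Prss34 encode serine proteases used as basophil markers, Cpa3 encodes a carboxypeptidase of mast cells and basophils, Ms4a2 the beta chain of the IgE receptor, and Cd200r3 an activating surface receptor of both cells.

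The libraries were labelled as liver tissue of a hepatoblastoma murine model, with no treatment, age, sex or replicate stated. The study describes tumors driven by MYC expressed from a transgene that Alb-Cre switches on in hepatocytes, beside healthy livers. NEJ723, NEJ709, NEJ687 and NEJ634 are tumors by its account. Its text does not name NEJ638, NEJ677 and NEJ654, and it counts 3 healthy livers without naming them. The labels themselves define no groups, so each library is described on its own and no groups were compared. The labels speak of single cells, the series text of single nuclei, and the methods of tissue dissociated with collagenase. The description of NEJ709 names NEJ634, and the title was followed here. Each library held between 40214395 and 132485391 UMIs, and 1157 barcodes passed the quality limits in 2 or more libraries. Such a shared barcode was carried by 10 of the 477 members. A single one of them, with Cpa3 at 9, 7 and 4 UMIs, was a member in 3 libraries (NEJ654, NEJ677 and NEJ687), so these 3 members may not be separate cells.

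The sequences upstream of the marker genes are shown because the members also carried the transcription factor gene Gata2, which encodes a zinc-finger protein that binds the letters GATA. The 100 bases before each annotated start are printed 5′ to 3′ on the gene's strand, from RefSeq on GRCm38.p6, with GATAA or its reverse complement TTATC in capitals.
Prss34, a granule protease of basophils, chr17:25298294-25298393, plus strand: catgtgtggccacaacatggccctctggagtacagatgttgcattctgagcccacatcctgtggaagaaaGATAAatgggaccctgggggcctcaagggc
Mcpt8, a granule protease of basophils, chr14:56085198-56085297, minus strand: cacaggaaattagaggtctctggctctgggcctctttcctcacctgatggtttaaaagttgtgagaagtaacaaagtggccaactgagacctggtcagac
Cpa3, a carboxypeptidase, chr3:20242182-20242281, minus strand: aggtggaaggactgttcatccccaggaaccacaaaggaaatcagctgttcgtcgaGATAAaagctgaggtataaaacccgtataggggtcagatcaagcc
Ms4a2, the IgE receptor beta chain, chr19:11623720-11623819, minus strand: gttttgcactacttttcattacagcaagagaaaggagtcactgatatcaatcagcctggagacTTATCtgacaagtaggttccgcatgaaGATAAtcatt
Cd200r3, a surface receptor, chr16:44943578-44943677, plus strand: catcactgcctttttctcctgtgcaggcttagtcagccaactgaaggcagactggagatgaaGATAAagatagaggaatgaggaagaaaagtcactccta

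The motif was present in the 100 bases of 4 of the 5 marker genes and was not among these letters for Mcpt8. The annotations disagree on the start of Mcpt8, and 76 of its 100 bases lie inside the gene as GENCODE M21 gives it. It began 30 bases before the start of Prss34, 45 before Cpa3, 38 before Cd200r3 and both 37 and 10 before Ms4a2. Of 32851 promoters of the same table, 8.55% held it in the same window, and 22.6% held it in the full 250 bases upstream, where the marker genes were again 4 of 5. The shorter window was chosen after these matches were seen. In GENCODE M21, also on GRCm38, the genes themselves lie at chr17:25298394-25300165 (Prss34), chr14:56082166-56085273 (Mcpt8), chr3:20215620-20242181 (Cpa3), chr19:11615523-11623719 (Ms4a2) and chr16:44943678-44981380 (Cd200r3), and all are protein-coding.

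Members numbered 298 of 40660 barcodes in NEJ634, or 0.733% (0.652 to 0.821, Clopper-Pearson 95% interval). The next shares were 0.463% (0.350 to 0.600) in NEJ723, from 56 of 12106, and 0.451% (0.313 to 0.630) in NEJ687, from 34 of 7531. NEJ709 held 55 members of 21482, or 0.256% (0.193 to 0.333), and with a mitochondrial limit of 10% its share was 0.701%, above those of NEJ723 at 0.486% and NEJ687 at 0.444%. The other 3 libraries held few, with 16 in NEJ638 at 0.251% (0.143 to 0.407), 11 in NEJ677 at 0.161% (0.0802 to 0.287) and 7 in NEJ654 at 0.123% (0.0496 to 0.254). The median over the 7 libraries was 0.256%. These intervals, and the exact Poisson 95% intervals in parentheses after levels, cover counting error only.

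The threshold lay within a dense part of the distribution in some libraries. Exactly 3 marker UMIs were found in 88 members, of which 45 were in NEJ634 and 33 in NEJ709, and none were in NEJ723 or NEJ687. A marker share of 0.1 to 0.2% was found in 86 members, while 27 barcodes with at least 3 marker UMIs lay at 0.05 to 0.1% and were left out. A further 209 barcodes had 2 marker UMIs at a share of 0.1% or more, 133 of them in NEJ709. Only 1 of the 5 genes was detected in 42 members, and 4 or 5 genes were detected in 98. Prss34 was detected in 390 members, Mcpt8 in 409, Cpa3 in 233, Ms4a2 in 143 and Cd200r3 in 100. The median member had 7 marker UMIs in NEJ634, 3 in NEJ709, 22.5 in NEJ723 and 75 in NEJ687.

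Levels are given as CPM, the UMIs of a gene summed over barcodes per 1000000 base UMIs. Prss34 was highest in the members of NEJ687 at 19568 CPM (19099 to 20046), followed by NEJ723 at 6668, NEJ634 at 5034, NEJ638 at 4907 and NEJ709 at 3111. In NEJ654 and NEJ677 it stood at 45.0 (1.14 to 251) and 73.8 (8.94 to 267), which rests on single UMIs. Droplets of 10 to 100 UMIs, which hold free RNA, had Prss34 at 74.5 CPM in NEJ654 and 55.3 in NEJ677. The other barcodes of these 2 libraries held all 5 marker genes together at 0.522 and 0.314 CPM. The source of the few Prss34 UMIs in their members was not tested.

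Mcpt8 was present in the members of every library. It ran from 628 CPM (366 to 1005) in NEJ677 to 7339 (7053 to 7634) in NEJ687, with a median of 2155. Cpa3 ran from 420 in NEJ634 to 1619 in NEJ654, and Ms4a2 from 96.5 in NEJ634 to 794 in NEJ638. The Cpa3 level of NEJ654 rests mostly on 2 barcodes. The one with mast cell proteases held 25 UMIs, and the one that was a member in 3 libraries held 9. Cd200r3 was lowest in NEJ709 at 61.8 and highest in NEJ638 at 649. The other barcodes of the same libraries held the 5 genes together at 0.314 to 61.6 CPM, with the highest value in NEJ709, where Prss34 stood at 31.6. Free-RNA droplets held them at 26.0 CPM in NEJ634, the lowest, and 106 in NEJ677, the highest, against a member threshold of 0.1% of base UMIs, which is 1000 CPM.

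**Figure D1:**
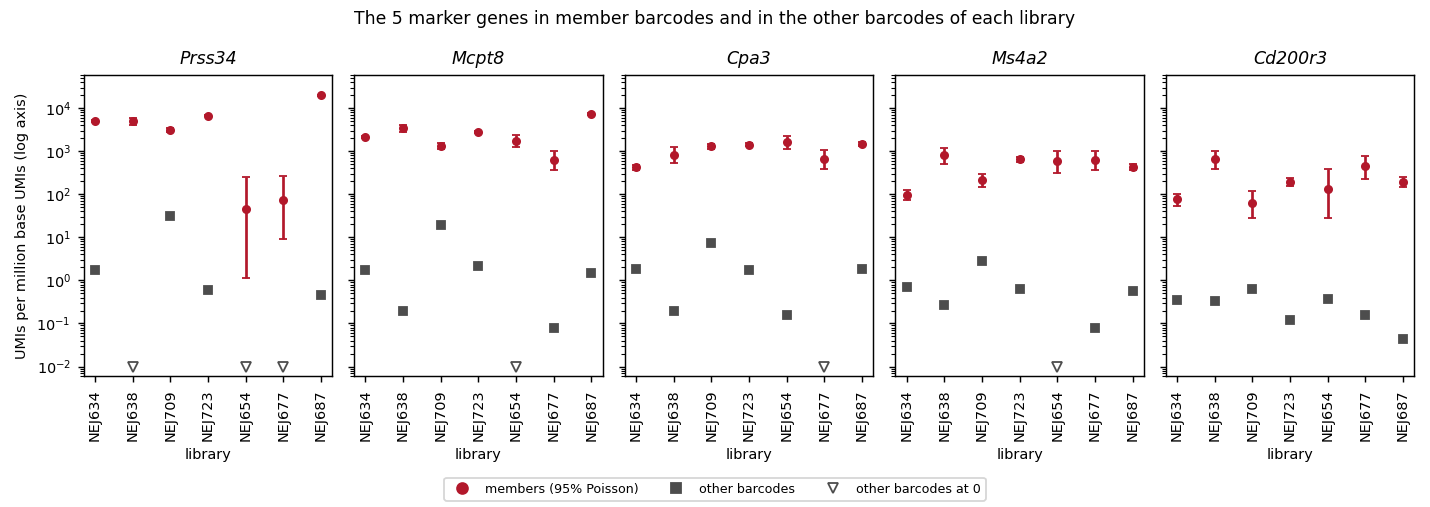
Level of each marker gene by library, in UMIs per 1000000 base UMIs on a log axis, in members (circles, with exact Poisson 95% intervals) and in the other barcodes of the same library (squares, with open triangles at the foot for 0 UMIs). Members exceed the other barcodes by construction, and the circles for Prss34 in NEJ654 and NEJ677 lie far below those of the other 5 libraries.

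Members were compared with the other barcodes of the same library in the 4 libraries that had at least 20 members. A gene was counted as higher if its level was at least 4-fold that of the other barcodes, among genes whose 2 levels averaged at least 20 CPM. No replicate exists within a library, so this is a count by size and not a test. A gene under 20 CPM in the other barcodes could pass the minimum only by being high in members, so counts that include such genes describe the members and support nothing. In NEJ723, 187 of 5623 genes were higher (3.33%), in NEJ687 177 of 5449 (3.25%) and in NEJ709 193 of 5693 (3.39%). In NEJ634, 38 of 6228 genes were higher (0.61%).

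Of the 21 genes of a basophil list, 17 were not used for the selection. Among these, 13 of 15 measured ones were higher in NEJ723, 12 of 16 in NEJ687, 8 of 13 in NEJ709 and 7 of 13 in NEJ634. Of the list genes with at least 20 CPM in the other barcodes, 5 of 7, 5 of 8, 4 of 9 and 3 of 9 were higher in the same order, beside 1.15%, 0.981%, 0.813% and 0.153% of all genes at that level. Of the 4 in NEJ709, 1 was the selection gene Prss34. In NEJ709, 7 of the 55 members, placed below in clusters 4 and 5, held 70630 of the 145613 base UMIs. The other 48 held 2 Gata2, 3 Cyp11a1 and 1 Ccl3 UMIs, so the counts of higher genes in NEJ709 do not describe most of its members. Lists of other cells separated the libraries. In NEJ687, 9 of 11 measured genes of monocytes and macrophages, 9 of 12 of neutrophils and 9 of 10 of the hepatocyte lineage were at least 4-fold lower in members, beside 6.0% of all genes compared. In NEJ634, 0 of 13, 2 of 13 and 1 of 10 were, beside 0.851% of all genes. The median folds of the 3 lists in NEJ634 were 1.06, 1.25 and 0.271, beside 1.001 over all genes. By median, members of NEJ634 thus carried the macrophage transcripts of their library at close to the level of its other barcodes, and the hepatocyte transcripts at a lower one. Neutrophil genes were split, with Ngp at 5272 against 2655 CPM but 2 of 13 at least 4-fold lower. The 10 endothelial genes had a median fold of 2.03 there.

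Beyond the lists, the genes of highest median fold among those of at least 100 CPM in the members of all 4 libraries were led by Tec, a tyrosine kinase of hematopoietic cells. Tec stood at 146 CPM in members of NEJ634, against 20.6 in its other barcodes, and at 117 against 18.4 in NEJ709, 138 against 14.1 in NEJ723 and 128 against 9.65 in NEJ687. Jak2, a kinase that signals for cytokine receptors, stood at 132, 220, 174 and 208 CPM in the same order, against 41.3, 38.6, 34.4 and 29.4 in the other barcodes. Rgs1, a regulator of G-protein signaling, Plac8, Ier3, Nabp1, Mylip, Nfkbiz, Tnfaip8 and Tent5a followed, with median folds of 4.9 down to 3.5. In NEJ634, which held 298 of the members, their folds ran from 1.34 for Nfkbiz and 1.95 for Plac8 to 4.29 for Mylip. The minimum of 100 CPM was asked of the members only, so this ranking describes them and supports nothing. In the 3 small libraries Ier3, an early response gene, was at 6134 CPM in NEJ638, 6388 in NEJ654 and 4873 in NEJ677, above its 933 to 2298 CPM in the 4 larger ones. Cluster make-up also differed. Cluster 4, described below, held 14 of 16, 5 of 7 and 10 of 11 members of NEJ638, NEJ654 and NEJ677. It held 7 of 298 in NEJ634, 3 of 55 in NEJ709, 25 of 56 in NEJ723 and 9 of 34 in NEJ687. The part of this in the Ier3 levels was not tested.

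The genes with the widest range among the members of the 4 larger libraries were not basophil genes. Ngp, Camp, S100a8 and S100a9, which encode neutrophil granule and cytosolic proteins, differed by 169-fold to 254-fold between the highest and the lowest library. S100a8 stood at 16056 CPM in NEJ709, 15053 in NEJ634, 1809 in NEJ723 and 77.1 in NEJ687. C1qc, Lgmn and Hmox1 of macrophages, Sparc of stromal and endothelial cells, and H19 and Afp of fetal liver and hepatoblastoma completed the list, all highest in NEJ634. Hemoglobin genes took 16.2% of member UMIs in NEJ709, 5.02% in NEJ634, 2.14% in NEJ723 and 1.09% in NEJ687. The part of these transcripts in the members' other values was not tested.

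Clustering the members on 1000 variable genes, without mitochondrial, hemoglobin, ribosomal protein and sex-linked ones, gave 7 clusters. Leading genes are those of highest fold over the other members, among genes of at least 200 CPM in the cluster. All members were selected on the 5 marker genes, so this ranking favors other genes over these. Cluster 4, with 73 members, was led by Il7r, Ccl4, Sytl3, Ptgs2 and Ccl3. Its leading 10 genes held 3 of the basophil list (Ccl4, Ccl3 and Lilr4b), and it is called basophil-like, or the Ccl3/Ccl4 cluster in the plots. The rest of the 10, Il7r, Sytl3, Ptgs2, Aqp9, Il1b, Acod1 and Osm, were on none of the cell type lists. The name thus rests on these 3 list genes, and the leading genes alone do not settle identity. Cluster 5, with 63 members, was led by Mpo, Prtn3, Elane, Ctsg and Ms4a3, the first 4 of which encode primary granule proteins of granulocyte precursors, and it is called the Mpo/Ctsg cluster after them. Both drew on several libraries. Cluster 4 held 25 members of NEJ723, 14 of NEJ638, 10 of NEJ677, 9 of NEJ687, 7 of NEJ634, 5 of NEJ654 and 3 of NEJ709. Cluster 5 held 28 of NEJ723, 25 of NEJ687, 4 of NEJ709, 3 of NEJ634, 2 of NEJ654 and 1 of NEJ677. The barcode that was a member in 3 libraries was the only cluster 5 barcode of NEJ677 and 1 of the 2 of NEJ654.

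The other 5 clusters remained unnamed, because their leading genes against the other members included genes of other cells. In cluster 7 these were 1 eosinophil and 1 macrophage marker. This reason does not set them apart from cluster 5, where Mpo, Prtn3 and Elane are also on the neutrophil list. The name of cluster 5 gives its leading genes and no cell type. Cluster 1, with 101 members, was led by Mest, Fam167b, Fabp4, Tspan7 and Oit3, and Oit3, Ramp2 and Gpr182 are known from liver endothelium. Cluster 2, with 98 members, was led by Fabp7, Wfdc17, Marco, Clec4f and Fcna, of which Marco, Clec4f and Fcna are known from liver macrophages. Cluster 3, with 84 members, was led by H2-Eb1, H2-Aa, Tmcc2, Rsad2 and Trim10, which join antigen presentation, interferon response and red cell genes. Cluster 6, with 34 members, held Ngp, Ltf, Lcn2 and Camp of neutrophils among its leading genes. Cluster 7, with 24 members, was led by Abcc3, Pcyox1, Ear2, Rcan1 and Vcam1. Of these 341 members, 288 came from NEJ634, 48 from NEJ709 and 5 from the remaining libraries.

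**Figure D2:**
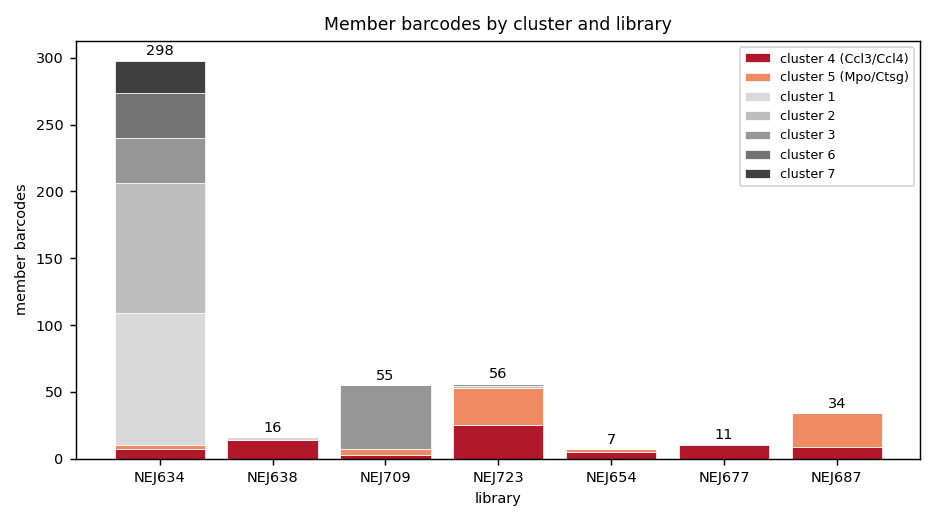
Number of member barcodes (vertical axis) in each library (horizontal axis), split by cluster. Clusters 4 and 5 make up all 34 members of NEJ687 and 53 of the 56 of NEJ723, but 10 of the 298 of NEJ634 and 7 of the 55 of NEJ709.

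Clusters 4 and 5 held 28.5% of the members and 84.7% of the marker UMIs. Depth enters this sum, since the median barcode had 9753 UMIs in cluster 5 and 2775 in cluster 4, against 1469 to 2077 in the others. As a median share of base UMIs, the markers made up 0.312% in cluster 4 and 0.677% in cluster 5. In clusters 1, 2, 3, 6 and 7 they made up 0.627%, 0.436%, 0.241%, 0.364% and 0.878%, so the unnamed members were not poorer in markers by this measure. They held 76 of the 98 members with 4 or 5 marker genes detected. As a share of all barcodes they made up 0.438% in NEJ723, 0.451% in NEJ687, 0.220% in NEJ638, 0.161% in NEJ677, 0.123% in NEJ654, 0.0326% in NEJ709 and 0.0246% in NEJ634. NEJ634 thus went from the highest share of the 7 libraries under the selection to among the lowest in these 2 clusters. Its interval there (0.0118 to 0.0452) overlapped that of NEJ709 (0.0131 to 0.0671). The clustering had no library correction, and clusters 1, 2, 6 and 7 drew 98.0 to 100% of their members from NEJ634. Library and cell identity cannot be told apart in them, so 0.0246% is not a basophil share of NEJ634. Of its 288 members outside clusters 4 and 5, 261 held 2 or more marker genes. Their ratio of Prss34 to Mcpt8 was 2.18, against 2.67 in its members of these 2 clusters. Cluster shares and cluster identity come from the same counts and carry no test.

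The summed marker lists, without the 5 selection genes, showed what else each cluster carried. The basophil list reached 35304 CPM in cluster 4 and 4020 in cluster 5, and 1300 to 7777 in the other clusters, so cluster 5 did not stand apart from them by this sum. In cluster 4, Ccl4 gave 13161 and Ccl3 6166 CPM of it. Both were among the genes that led cluster 4, so the sum partly restates the clustering and is a description. Gata2 stood at 663 CPM in cluster 4, 496 in cluster 5 and 70.2 to 193 in the others, and Cyp11a1 at 1014, 319 and 40.0 to 231. Neutrophil genes reached 158219 CPM in cluster 6, macrophage genes 15541 in cluster 7, endothelial genes 2745 in cluster 1 and red cell genes 283453 in cluster 3, the last including hemoglobin UMIs that are not in the base. The same 4 lists stood at 8685, 478, 158 and 18276 CPM in cluster 4 and at 4029, 393, 101 and 7834 in cluster 5. The eosinophil list summed to 207 CPM in cluster 4, 57.7 in cluster 5 and 211 in cluster 7. In cluster 4, 189 CPM of it came from Alox15, which is also on the basophil list, while Epx, which encodes eosinophil peroxidase, and Prg2, which encodes major basic protein, had 0 UMIs there and 3 and 2 UMIs in cluster 5.

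**Figure D3:**
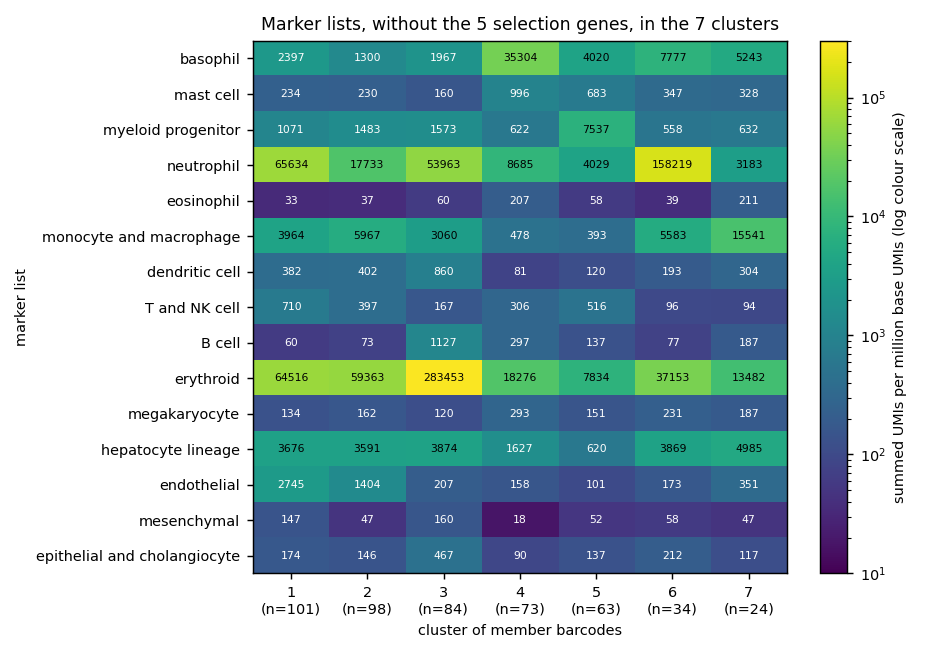
Summed level of 15 marker lists without the 5 selection genes (rows) in the 7 clusters of members (columns, with the number of barcodes), in UMIs per 1000000 base UMIs on a log color scale, with the value in each cell. Cluster 4 has the highest basophil value, 35304, of which its leading genes Ccl4 and Ccl3 give 13161 and 6166. Cluster 5, at 4020 for basophils, has the highest myeloid progenitor value, whereas neutrophil, macrophage, endothelial or red cell lists peak in the others.

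The unnamed members of NEJ634 held part of the basophil list outside the 5 markers. Of 13 measured list genes, 6 were at least 4-fold higher than in the other barcodes of NEJ634 (Cyp11a1, Il6, Il3ra, Hdc, Gata2 and Ifitm1), beside 0.463% of all genes compared. Of the 9 list genes with at least 20 CPM in the other barcodes, 2 were higher, Hdc and Ifitm1, beside 0.101% of all genes at that level. Others lay near the other barcodes, with Ccl6 at 299 against 242 CPM and Itgam at 71.6 against 73.5, and Fcer1a had 1 UMI. Levels are given for 3 genes that lay under 20 CPM in the other barcodes, as a description. Cyp11a1, which encodes a steroid-producing enzyme that mouse basophils express, stood at 75.7 CPM (53.3 to 104) in them, against 0.700 in the other barcodes of NEJ634 and 832 in its members of clusters 4 and 5. Gata2 stood at 104 CPM (77.7 to 137) against 5.84 and 1034, and Slc18a2, the vesicular transporter that loads histamine and is on the mediator list, at 94.1 against 1.83 and 1185. At least 1 Cyp11a1 UMI was seen in 33 of the 288 barcodes, and at least 1 Gata2 UMI in 41. The 5 marker genes together were 6.84-fold higher in its members of clusters 4 and 5 than in these barcodes. In the 48 unnamed members of NEJ709 the same genes rested on few UMIs, with 3 of Cyp11a1, 2 of Gata2 and 5 of Slc18a2. Doublets were not removed, and the part of doublets and free RNA in these barcodes was not tested.

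Within clusters 4 and 5, the barcodes of NEJ723 and NEJ687 were numerous enough to be compared with the rest of their library. In NEJ723, 193 of 5628 genes were at least 4-fold higher (3.43%), and in NEJ687, where all members were in these clusters, 177 of 5449 (3.25%). Of 13 genes of mediator synthesis and storage, 8 were higher in NEJ723 and 5 in NEJ687, of which 5 and 4 lay under 20 CPM in the other barcodes. Among those at 20 CPM or more in the other barcodes, 3 of 4 and 1 of 4 were higher, beside 1.19% and 0.981% of all genes at that level. Hdc, Slc18a2, Alox5, Cyp11a1 and Alox15 were higher in both, of which Hdc makes histamine and Alox5 starts leukotriene synthesis. Of 22 cytokine and chemokine genes, 9 and 8 were higher, of which 7 and 4 lay under 20 CPM in the other barcodes, and Il4, Il13, Il6, Hgf, Osm, Ccl3, Ccl4 and Ccl9 were among them in both libraries. Of 30 surface receptor genes, 10 and 11 were higher with the selection gene Cd200r3 and 9 and 10 without it, and of the 10 and 11, 6 in each library lay under 20 CPM in the other barcodes. The higher ones included in both Il3ra and Csf2rb, the receptor chains for interleukins and colony-stimulating factors that support basophils, and Il18rap. Of 20 cell cycle genes, 0 were higher in either library, and 6 and 1 were at least 4-fold lower, beside 6.68% and 6.0% of all genes compared.

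Levels of single genes outside the 5 markers, which the clustering could use, describe these barcodes. Hdc stood at 1134 CPM in NEJ723 and 866 in NEJ687 against 50.02 and 113 in the other barcodes, and Ifitm1 at 1559 and 2236 against 48.6 and 113. The next 4 genes lay under 20 CPM in the other barcodes and could pass the minimum only through the members. Cyp11a1 stood at 397 CPM in NEJ723 and 445 in NEJ687, against 0.218 and 0.241 in the other barcodes. Gata2 stood at 556 and 365 against 5.79 and 4.32. Il3ra, the ligand-binding chain of the receptor for the main basophil growth factor, stood at 85.5 and 110 against 10.6 and 8.60. Itga2b, an integrin chain best known from platelets and listed for megakaryocytes, stood at 161 and 142 against 6.63 and 7.17.

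Transcription factor and IgE signaling genes were also counted. Of 25 measured transcription factor genes, 7 were higher in NEJ723 and 5 in NEJ687, beside 3.43% and 3.25% of all genes, and Gata2, Cebpa, Runx1, Lmo4 and Ikzf2 were in both counts. Among those at 20 CPM or more in the other barcodes, 5 of 21 and 2 of 21 were higher, beside 1.19% and 0.981% of all genes at that level. Gata2 is required for basophil and mast cell development, and Cebpa for the granulocyte lineage. Of 14 genes of the IgE receptor and its signaling, 3 and 4 were higher with the selection gene Ms4a2 and 2 and 3 without it, and all of them lay under 20 CPM in the other barcodes. Of the 8 genes at 20 CPM or more, 0 were higher in either library. Lat2, an adaptor of the receptor, was higher in both, Gab2 in NEJ723, and Lat and Fcer1a in NEJ687. Fcer1g, the signaling chain shared with many myeloid receptors, stood at 1127 CPM in NEJ723 and 1355 in NEJ687 against 611 and 778 in the other barcodes. Fcer1a, the chain that binds IgE, stood at 44.5 CPM (24.9 to 73.4) in NEJ687 against 0 UMIs in the other barcodes, and at 15.1 against 0.0336 in NEJ723, below the minimum mean. By cluster it stood at 117 CPM (76.5 to 172) in cluster 4 and 18.7 (9.98 to 32.0) in cluster 5.

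The 2 clusters differed in cytokine genes, receptor genes and granule genes of precursors. Since these genes defined the clusters, the values describe them without a test. Ccl4 stood at 13161 CPM (12688 to 13647) in cluster 4 and 268 (231 to 310) in cluster 5, and Ccl3 at 6166 and 444. Both encode chemokines that draw in leukocytes. Il4 and Il13, the signature cytokines of allergic responses, each stood at 311 CPM in cluster 4 and at 46.1 and 37.5 in cluster 5. Il6 stood at 789 and 133, Hgf, which encodes a growth factor for hepatocytes, at 563 and 133, and Il1b at 2745 and 59.1. Il5, Il3 and Il9 had 0 UMIs in both clusters, which does not exclude a low level.

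Receptor, lipid mediator and granule genes were compared between the clusters in the same way. Il7r, a cytokine receptor chain known from lymphoid cells and used with Crlf2, stood at 334 CPM (262 to 419) in cluster 4 and 1.44 (0.0365 to 8.03) in cluster 5, where it had 1 UMI. Crlf2 stood at 126 (83.9 to 182) and 167 (138 to 201), with overlapping intervals. Il18rap and Il18r1, the chains of one interleukin receptor, stood at 599 and 198 CPM in cluster 4 and at 128 and 14.4 in cluster 5, and Csf2rb at 775 and 252. Ptgs2, which makes prostaglandins, stood at 672 and 44.7, and Alox5ap, which assists leukotriene synthesis, at 1857 and 840. Slc18a2 stood at 343 (270 to 429) and 290 (251 to 333), and Cd63, a granule membrane protein exposed on degranulation, at 1190 (1051 to 1342) and 1127 (1050 to 1209), with overlapping intervals. Other granule genes did differ, with Srgn, the core protein of granule proteoglycans, at 4701 and 2847 CPM. Of the transcription factors, Myb, a factor of immature cells, stood at 40.6 and 186 CPM, Egr1, an immediate early factor, at 1321 and 112, and Mitf and Gata1 at under 10 CPM in both.

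Mpo, the peroxidase of primary granules, stood at 13.5 CPM (2.79 to 39.5) in cluster 4 and 1590 (1497 to 1686) in cluster 5. Prtn3, Elane and Ctsg, the serine proteases of the same granules, stood at 18.0, 4.51 and 257 CPM in cluster 4 and at 1093, 582 and 2632 in cluster 5. Ms4a3, a marker of granulocyte and monocyte precursors, stood at 36.1 and 317. Pooled over libraries, the selection genes Prss34 and Mcpt8 were also more abundant in cluster 5, at 13511 and 5327 CPM against 6067 and 2218 in cluster 4. Cd200r3 went the other way, at 137 against 460, as did Hdc at 669 against 3024 and Cyp11a1 at 319 against 1014. Gata2 was closer, at 496 (445 to 551) against 663 (560 to 779). The libraries were mixed differently in the 2 clusters, so these pooled contrasts mix library and cluster. Prss34 was detected in 18 of 28 barcodes of cluster 5 and 10 of 25 of cluster 4 in NEJ723, and in 18 of 25 and 5 of 9 in NEJ687. It was detected in 0 of 4 and 3 of 3 in NEJ709, and in 2 of 3 and 6 of 7 in NEJ634.

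Cell cycle genes were compared by level and by barcode. All 20 of the list had a higher CPM in cluster 5 than in cluster 4, and the intervals were apart for 16 of them. Mki67, which marks cycling cells, had 167 UMIs there (241 CPM) and 8 in cluster 4 (36.1 CPM), and Top2a, a topoisomerase of dividing cells, had 132 and 2. The median barcode of cluster 5 had 9753 UMIs and that of cluster 4 had 2775. With each barcode thinned to 1000 base UMIs, a UMI of at least 1 of 20 cell cycle genes was seen in 84.1% (72.7 to 92.1) of 63 barcodes of cluster 5 and 74.3% (62.4 to 84.0) of 70 of cluster 4, with 3 shallower ones left out. These intervals overlapped. Most barcodes of both clusters held such a UMI, so this share cannot show whether cycling differed. Without thinning the shares were 100% and 94.5%. This list includes Hmgb2 and Stmn1, which are also expressed outside the cycle, and Hmgb2 stood at 1929 and 1077 CPM.

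**Figure D4:**
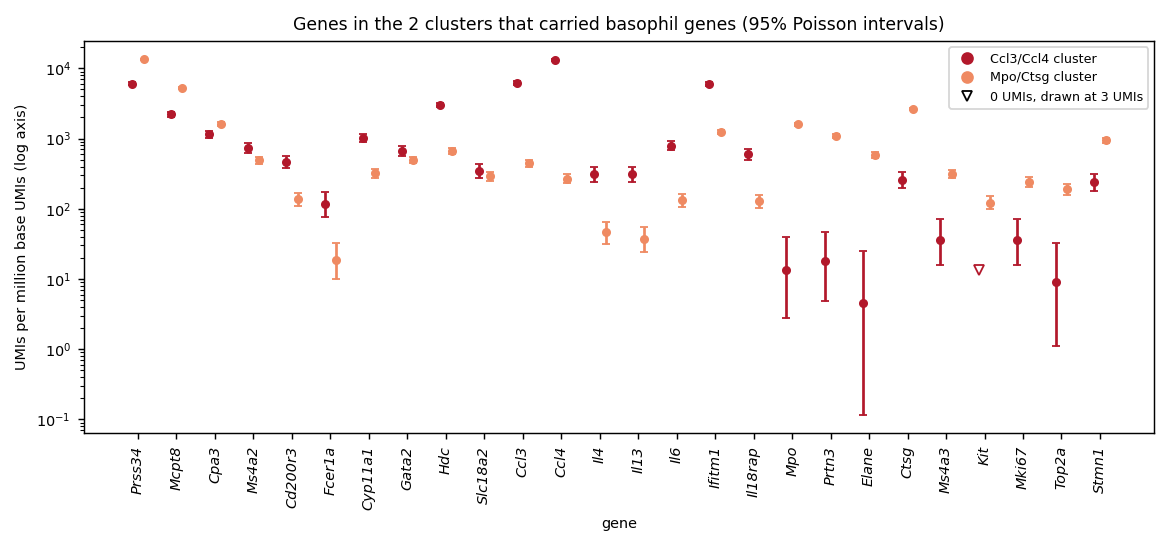
Level of 26 genes in cluster 4 (dark) and cluster 5 (light), in UMIs per 1000000 base UMIs on a log axis with exact Poisson 95% intervals, where an open triangle is 0 UMIs drawn at the level of 3 UMIs. Cytokine genes, Hdc and Ifitm1 lie higher in cluster 4, and Mpo, Prtn3, Elane, Ctsg and Mki67 lie higher in cluster 5.

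Prss34 was unevenly spread over the barcodes of both clusters. It was absent from 44 of 73 barcodes in cluster 4 and from 24 of 63 in cluster 5, and at least 10 UMIs were found in 14 and 33, up to 241 and 947. This split was chosen after the values were seen. A barcode without Prss34 could be a member only through the other marker genes, and Mpo led cluster 5. The contrasts in Mcpt8 and Mpo below are therefore partly set by the selection and the clustering, and they are a description. The cluster 5 barcodes with 0 Prss34 UMIs had a median of 9027.5 UMIs in all, and those with 10 or more Prss34 UMIs had 10066. In the first set Mcpt8 stood at 679 CPM and Mpo at 3417, and in the second Mcpt8 stood at 8570 and Mpo at 764. The libraries were mixed differently in these sets. In cluster 5, 6 of the 24 barcodes with 0 Prss34 UMIs and 0 of the 33 with 10 or more came from NEJ709 and NEJ654, and the first set included both barcodes with mast cell proteases. In cluster 4, 24 of the 44 barcodes with 0 and 2 of the 14 with 10 or more came from NEJ638, NEJ677 and NEJ654.

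The sets were therefore also compared within a library, without the 2 barcodes with mast cell proteases. In cluster 5 of NEJ723, the 10 barcodes with 0 Prss34 UMIs had Mpo at 5016 CPM (4567 to 5498), and the 14 with 10 or more had it at 406 (314 to 517). In NEJ687, with 7 and 17 barcodes, Mpo stood at 3679 and 1008. Cd34, which is expressed by early progenitors, stood at 165 (92.2 to 272) and 36.9 (13.6 to 80.4) CPM in NEJ723 and at 137 and 22.4 in NEJ687, where it rested on 9 and 5 UMIs. Kit stood at 176 (100.4 to 285) and 67.7 (33.8 to 121) in NEJ723, with overlapping intervals, and at 152 and 17.9 in NEJ687. Sox4, another progenitor gene, went in opposite directions, at 54.9 and 135 CPM in NEJ723 and at 304 and 62.7 in NEJ687. In cluster 4 of NEJ723, the 15 barcodes with 0 Prss34 UMIs had Ccl4 at 14189 CPM and Hdc at 3013, and the 7 with 10 or more had them at 4046 and 1562. In cluster 4 of NEJ687, with 4 barcodes and 1, Ccl4 stood at 14477 and 8512 CPM, and Hdc went the other way, at 2479 (1604 to 3659) and 3611 (1974 to 6059), with overlapping intervals.

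Barcodes of other granulocyte precursors were set beside the Mpo/Ctsg cluster. They were non-members with at least 10 UMIs of Mpo, Elane and Prtn3 making up at least 1% of base UMIs, a definition made after the clusters were seen. There were 1108 in all, with 78 in NEJ723 and 98 in NEJ687. Elane stood at 7757 and 12201 CPM in these precursors against 251 and 1052 in the Mpo/Ctsg cluster of the same libraries, a difference that the definition of the precursors fixed. Ctsg, which it did not use, lay closer, at 4564 and 3217 against 2485 and 3106. The precursors held Gata2 at 7.2 and 1.11 CPM against 553 and 328, and Cyp11a1 at 0 and 0.554 against 268 and 341. S100a8 stood at 17784 and 12320 CPM in the precursors and at 687 and 67.6 in the cluster. Elane, Prtn3 and Mpo defined the precursors and the 5 markers defined the members, whereas Gata2, Cyp11a1 and S100a8 were in neither rule, although the clustering could use them. As non-members, the precursors had lost every barcode that met the marker rule, and Gata2 and Cyp11a1 went with those markers in members. The low Gata2 and Cyp11a1 of the precursors was therefore partly set by that choice.

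Mast cell chymase or tryptase transcripts were found in 2 members. The genes Cma1, Tpsb2, Tpsab1, Mcpt4, Mcpt1, Mcpt9, Cma2 and Tpsg1 were searched, and no other member held a UMI of any of them. Mcpt2, another mast cell protease gene, was not among the 8 and had 6 UMIs in 6 members, of which 5 were in cluster 2 and 1 was the NEJ709 barcode described next. The barcode in NEJ709 had 15 UMIs of Cma1, which encodes mast cell chymase, 8 of Tpsb2, which encodes a tryptase, 17 of Kit, 85 of Gzmb and 69 of Cpa3 among 9443 UMIs. The barcode in NEJ654 had 29 of Cma1, 0 of Tpsb2, 11 of Kit, 115 of Gzmb and 25 of Cpa3 among 6806. Both held Mcpt8, with 11 and 32 UMIs, and 0 of Prss34, Fcer1a and Mpo. Neither barcode was shared with another library. Both lay in cluster 5, where Kit had 85 UMIs in all (123 CPM, 97.9 to 151), whereas cluster 4 had 0 UMIs of Kit, where 3 UMIs would stand at 13.5 CPM. Non-members had at most 4 UMIs of the 8 proteases in a barcode.

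Across libraries, the barcodes of clusters 4 and 5 shared Gata2 and Cyp11a1 and differed in the balance of the clusters. Gata2 ran from 365 CPM (303 to 435) in NEJ687 to 1034 (742 to 1403) in NEJ634, with a median of 706, and Cyp11a1 from 397 (338 to 464) in NEJ723 to 1601 (1109 to 2237) in NEJ638, with a median of 585. The order of neighboring libraries was mostly within these intervals. Ccl4 was highest in NEJ677 at 18568 CPM, NEJ638 at 14598 and NEJ654 at 12461, and lower in NEJ634 at 5549, NEJ723 at 2739, NEJ709 at 2067 and NEJ687 at 1664. The first 3 are the libraries that the study does not name as tumors, but the labels set no groups, so no difference between these sets was tested. Mpo stood at 1506 CPM in NEJ687, 1346 in NEJ723, 681 in NEJ634, 396 in NEJ709, 180 in NEJ654, 148 in NEJ677 and 0 in NEJ638. The values of NEJ654 and NEJ677 rest on 4 UMIs each, of which 3 and 4 were in the barcode that was a member in 3 libraries.

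Within cluster 4 alone the chemokine contrast between libraries was smaller. Ccl4 was highest in NEJ654 at 23826 CPM and NEJ677 at 21415, followed by NEJ687 at 15693, NEJ634 at 15515, NEJ638 at 14598, NEJ723 at 10742 and NEJ709 at 5074. NEJ687 lay within the range of the other libraries here. Ccl4 was among the genes that led cluster 4, so taking this cluster alone chose barcodes with high Ccl4 in every library. The part of cluster balance in the contrast was not tested. Ifitm1, an interferon-induced membrane protein gene, ran from 1743 CPM in NEJ709 to 12091 in NEJ677 within cluster 4. Hdc ran from 1588 in NEJ709 to 5651 in NEJ638. Prss34 stood at 4187 to 13672 CPM in cluster 4 of 5 libraries, and at 86.3 (2.19 to 481) in NEJ654 and 42.6 (1.08 to 237) in NEJ677, where 1 barcode of 5 and 1 of 10 had a single UMI. In NEJ638 3 of 14 barcodes had it, with up to 90 UMIs in 1 barcode. NEJ654 and NEJ677 thus had members with Mcpt8, Cyp11a1 and Gata2 in which Prss34 rested on single UMIs.

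**Figure D5:**
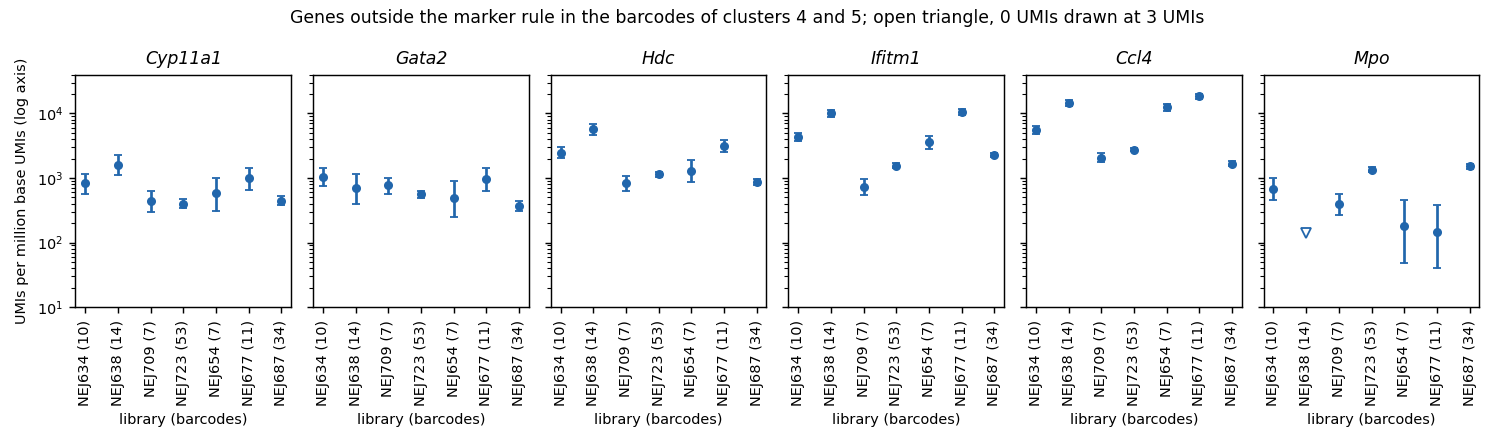
Level of 6 genes outside the 5 markers, by library, in the barcodes of clusters 4 and 5 (number in parentheses), in UMIs per 1000000 base UMIs on a log axis with exact Poisson 95% intervals, where an open triangle is 0 UMIs drawn at the level of 3 UMIs. Gata2 spans 365 to 1034 CPM, while Ccl4 and Ifitm1 are highest in NEJ638 and NEJ677 or NEJ654 and Mpo is highest in NEJ723 and NEJ687.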

How the data were processed

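Single-cell RNA libraries of mouse liver were used, 7 in number, none of which the labels place in a group. The values deposited by the authors are raw UMI counts for 32285 genes, with every barcode listed and no normalization. The file headers name Cell Ranger 4, and the submitters' processing notes Cell Ranger 6.0. The genome build is not given in the sources used here, so positions are those of GENCODE M21 and RefSeq.

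Barcodes and members were chosen as the report states, and members and gene lists were chosen with earlier results of these data known. UMIs were summed over barcodes per 1000000 base UMIs. A gene at 0 was set to 3 UMIs for folds. Members of all libraries were scaled to 10000 base UMIs, log-transformed and clustered (1000 variable genes without mitochondrial, hemoglobin, ribosomal protein and sex-linked genes, 15 components, 15 neighbors, Leiden resolution 0.5), with no library correction. Clusters were named from fixed marker lists. The named genes were the markers, the list genes, the 10 of highest median fold, the 10 of widest range among libraries and the 5 leading genes per cluster, of at least 100 or 200 CPM. Other genes named were Ramp2, Gpr182, Aqp9 and Acod1, chosen after their values were seen. Doublets were not removed. No test was run, since the labels give no groups. Total UMIs per library limit precision through the intervals given.

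Alternatives changed the UMI, mitochondrial and marker limits, the genes summed, the barcodes taken as cells, the total, weighting, ambient subtraction (10%), shared barcodes and clustering. Restricting members to clusters 4 and 5, giving libraries with under 20 members, requiring 20 CPM in the other barcodes and splitting barcodes by Prss34 within a library were added after seeing the data. Fold calls and intervals were tested on simulated data. Clustering used scanpy 1.11.5 with igraph 0.11.9 and anndata 0.12.19, intervals scipy 1.17.1, tables pandas 2.3.3 and numpy 2.4.6, and plots matplotlib 3.10.9, all in Python 3.11.15.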

Additional observations from a re-analysis of the deposited data

Results flagged for a closer look

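In NEJ634, 53 barcodes with over 500 and at most 1000 UMIs met the marker rule but lay under the limit of 1000 UMIs and were used in no comparison. They stood out because their number exceeds the limit that a count of 0 allows. They had a median of 825 UMIs and 5 marker UMIs, with Prss34 at 4981 CPM, Mcpt8 at 2477, Gata2 at 188, Cyp11a1 at 162 and S100a8 at 7673. In NEJ723, 3 such barcodes were found. Outliers and differences between groups were not examined, because the labels give no groups.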

How the results depend on the processing

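The order of libraries by member share depended on the limits. With a minimum of 500 UMIs the share was 0.523% in NEJ634 and 0.25% in NEJ723, with a minimum of 2000 it was 0.124% in NEJ638, and with a mitochondrial limit of 10% it was 0.701% in NEJ709. With markers at 0.5% of base UMIs it was 0.347% in NEJ634, 0.239% in NEJ687, 0.198% in NEJ723, 0.0784% in NEJ638, 0.0326% in NEJ709, 0.0176% in NEJ654 and 0% in NEJ677. With 10 marker UMIs it was 0.268%, 0.0470%, 0.0372%, 0.0352% and 0.0146% in NEJ634, NEJ638, NEJ709, NEJ654 and NEJ677. Without Prss34 and Mcpt8 in the sum it was 0.0541%, 0.125% and 0.0326% in NEJ634, NEJ638 and NEJ709, and without Cpa3 it was 0.191% in NEJ709. Among only the deepest barcodes of each library, taken by a percentile of its largest barcodes, it was 0.115% in NEJ634, 0.183% in NEJ709, 0.771% in NEJ723 and 0.641% in NEJ687. In clusters 4 and 5 alone, an alternative added after seeing the data, it was 0.0246% in NEJ634 and 0.0326% in NEJ709. The other shares moved by less than their counting intervals.

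The summed level of the 5 markers in members was 7781, 5995, 11739 and 29009 CPM in NEJ634, NEJ709, NEJ723 and NEJ687. In the same order it was 7023, 4589, 11130 and 28302 CPM over all UMIs, 8643, 6651, 13036 and 32229 with 10% ambient RNA subtracted, and 14282, 17529, 19988 and 48006 with markers at 0.5% of base. As a mean over members it was 6511, 3845 and 27595 in NEJ634, NEJ709 and NEJ687, and in clusters 4 and 5 alone it was 37000 in NEJ634 and 9599 in NEJ709. The genes at least 4-fold higher numbered 19, 78, 109 and 89 with a mean of at least 50 CPM, 658, 1012, 985 and 833 with no minimum, and 9, 41, 59 and 49 with at least 20 CPM in the other barcodes, a setting added after seeing the data. With markers at 0.5% of base they numbered 82 in NEJ634 and 710 in NEJ709, in clusters 4 and 5 alone 516 and 585, and against other barcodes with a UMI of Ptprc, which encodes the leukocyte antigen CD45, 112 in NEJ723 and 116 in NEJ687. Of the values of the 7 single genes recomputed (Cyp11a1, Gata2, Hdc, Ifitm1, Ccl3, Mpo and Il6), in NEJ634, NEJ709, NEJ723 and NEJ687, 64 moved beyond their counting interval and 104 did not, and leaving out shared barcodes moved 0. NEJ654 and NEJ677, which hold the barcode shared by 3 libraries, were not among them.

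Clustering at a resolution of 1 or 0.25 gave 136 members in the clusters led by the same genes, and leaving out the marker genes gave 138. All 136 of clusters 4 and 5 were among them in each case. The cause of these shifts was not tested. Counting error limits the 3 libraries with under 20 members most. No paired analysis was possible because the labels give no groups or replicates, and for the same reason no replicate was left out.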
